A study of Mus musculus with 12 samples.

Results

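The genes described here are 9 genes known for their expression in platelets and megakaryocytes: Gp1ba, Gp9, Gp6, Itga2b, Itgb3, Treml1, Pf4, Ppbp and Tubb1. The rule that picked them used gene symbols and no measured value, but earlier results of these data were known when they were chosen. All 9 were found among the 25514 genes of the normalised blood table and among the 32689 genes of the normalised colon table. The libraries held total RNA from whole blood and colon of 6 C57BL/6 male mice, 8 weeks old when obtained. Mice 1, 2 and 4 carry the label of ulcerative colitis (UC), the model being made with 1.5% dextran sulfate sodium (DSS) in the drinking water for 7 days, and mice 7, 8 and 9 carry the control label, for time-matched animals that drank the same water without DSS. All animals were killed on day 8, and the 6 were chosen from 10 by disease activity index, a score of weight loss, stool and bleeding. Each mouse gave 1 blood and 1 colon library, so each of the 4 groups held 3 libraries. The blood libraries were depleted of globin and ribosomal RNA and the colon libraries of ribosomal RNA, with a different extraction kit for each tissue, so tissue and kit cannot be told apart. DSS acts on the gut lining from the lumen, and the model is a chemical injury of otherwise healthy mice.

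Platelets are small fragments without a nucleus that megakaryocytes shed into the blood, and they keep a store of messenger RNA from the parent cell. At a wound they stick to von Willebrand factor through the glycoprotein Ib-IX complex and to collagen through glycoprotein VI, bind fibrinogen through the integrin αIIbβ3, and release granules filled with chemokines and clotting proteins. Platelet counts and platelet activity are known to change in colitis, and platelet chemokines act on neutrophils and monocytes.

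Blood libraries held 80867247 to 142536804 counts each and colon libraries 69181049 to 103662306. All 8 red cell markers and all 4 gut epithelium markers were higher in every library of the tissue named by the label. The disease labels stood against the inflammation genes. S100a8, a neutrophil alarmin, measured 88578, 14299 and 11466 normalised counts in the blood of mice 1, 2 and 4, and 37179, 8642 and 101913 in that of mice 7, 8 and 9. In the colon it measured 5370, 33.1 and 22.3 in mice 1, 2 and 4 and 1888, 75.6 and 13337 in mice 7, 8 and 9. The highest libraries in both tissues were those of mice 1, 7 and 9, of which 1 is labelled UC and 2 are labelled control, so the groups below are named libraries labelled UC and libraries labelled control.

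The members lie on 6 chromosomes of GRCm38, and Ppbp and Pf4 are neighbours on the plus strand of chromosome 5. Ppbp spans chr5:90768518-90770063 and Pf4 chr5:90772435-90773383, with 2371 bases between them. On chromosome 11 lie Gp1ba (chr11:70639122-70642036, plus strand), Itga2b (chr11:102453297-102470122, minus strand) and Itgb3 (chr11:104608000-104670476, plus strand). Gp9 spans chr6:87778072-87779768 and Treml1 chr17:48359916-48367176, both on the plus strand. Tubb1 spans chr2:174450695-174457882 on the plus strand and Gp6 chr7:4363965-4397744 on the minus strand. All 9 are protein coding in GENCODE, and no other annotated gene overlapped an exon of any of them.

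Megakaryocyte genes are known to be switched on by GATA and ETS family transcription factors, so the 250 bases before the RefSeq start (GRCm38.p6) of the members were searched for GATAA and for GGAAG on both strands. Of the 9 genes, 8 had an entry and Itgb3 had none. GATAA was present before 3 of the 8 genes (Gp1ba, Gp9 and Gp6), or 37.5%, against 22.6% of 32851 promoters. GGAAG was present before 7 of the 8, all but Gp6, or 87.5%, against 64.1% of all promoters. Both stood before Gp1ba and Gp9, or 25.0% of the 8, against 13.2% of all promoters. The last 130 bases before the start are shown for the 2 von Willebrand receptor genes and for the 2 neighbouring chemokine genes, all on the plus strand, with every match of either motif in capitals. They cover chr11:70638992-70639121 (Gp1ba), chr6:87777940-87778069 (Gp9), chr5:90772305-90772434 (Pf4) and chr5:90768388-90768517 (Ppbp).
Gp1ba: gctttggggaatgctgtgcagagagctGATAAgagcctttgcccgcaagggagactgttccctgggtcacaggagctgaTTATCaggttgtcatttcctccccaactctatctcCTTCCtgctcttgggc
Gp9: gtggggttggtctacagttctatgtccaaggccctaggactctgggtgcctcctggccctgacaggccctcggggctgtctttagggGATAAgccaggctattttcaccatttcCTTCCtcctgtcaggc
Pf4: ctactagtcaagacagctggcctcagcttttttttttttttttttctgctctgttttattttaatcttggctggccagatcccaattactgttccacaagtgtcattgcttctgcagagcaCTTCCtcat
Ppbp: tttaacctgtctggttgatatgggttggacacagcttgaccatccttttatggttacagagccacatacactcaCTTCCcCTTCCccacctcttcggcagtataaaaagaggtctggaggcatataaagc
In the Gp1ba window GATAA began 103 bases before the start, its reverse complement TTATC 51 bases and CTTCC, the reverse complement of GGAAG, 16 bases before it. Gp9 had GATAA at 43 bases and CTTCC at the same 16 bases before the start. Neither chemokine gene held GATAA in its 250 bases, and each held CTTCC, Pf4 once and Ppbp at 2 places 6 bases apart. These are matches of letters and not measured binding sites.

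In whole blood the members were among the more abundant messenger RNAs. Together they took 0.456% to 0.721% of the counts of the normalised table in each blood library, and 0.185% to 0.392% of all its counts. The difference lies largely in 7SL RNA, which is outside the table and took 54.9% to 65.4% of all counts in 5 blood libraries, 35.9% in that of mouse 9 and 4.90% to 6.50% in the colon libraries. With counts scaled to 1000000 per library and divided by the kilobases of exon (CPM per kb, mean ± SD, n = 6), Ppbp reached 1501 ± 387 and ranked 20 of 15015 protein-coding genes in the blood table. Ppbp encodes a platelet granule chemokine that attracts neutrophils. Tubb1, the β1-tubulin of the microtubule ring that gives platelets their disc shape, followed at 912 ± 197 CPM per kb and rank 42. Pf4, the granule chemokine platelet factor 4, stood at 713 ± 170 and rank 48, and Gp9, a small subunit of the von Willebrand factor receptor, at 503 ± 119 and rank 74. The ranges of each neighbouring pair in this order overlapped.

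A step down separated these 4 genes from the rest. Itga2b, the αIIb chain of the fibrinogen receptor, had a level of 175 ± 21.9 CPM per kb and Itgb3, its β3 chain, one of 133 ± 45.6, and their ranges overlapped. The lowest Gp9 library (369) lay above the highest Itga2b library (203). Gp6, the collagen receptor glycoprotein VI, had a level of 34.4 ± 10.9 and Treml1, an immunoreceptor stored in platelet granules, one of 31.6 ± 6.94 CPM per kb, and these ranges overlapped as well. Gp1ba, the chain that contacts von Willebrand factor, was lowest at 10.3 ± 4.70 CPM per kb, rank 1910, and its highest library (18.2) lay below the lowest Treml1 library (23.3).

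**Figure D1:**
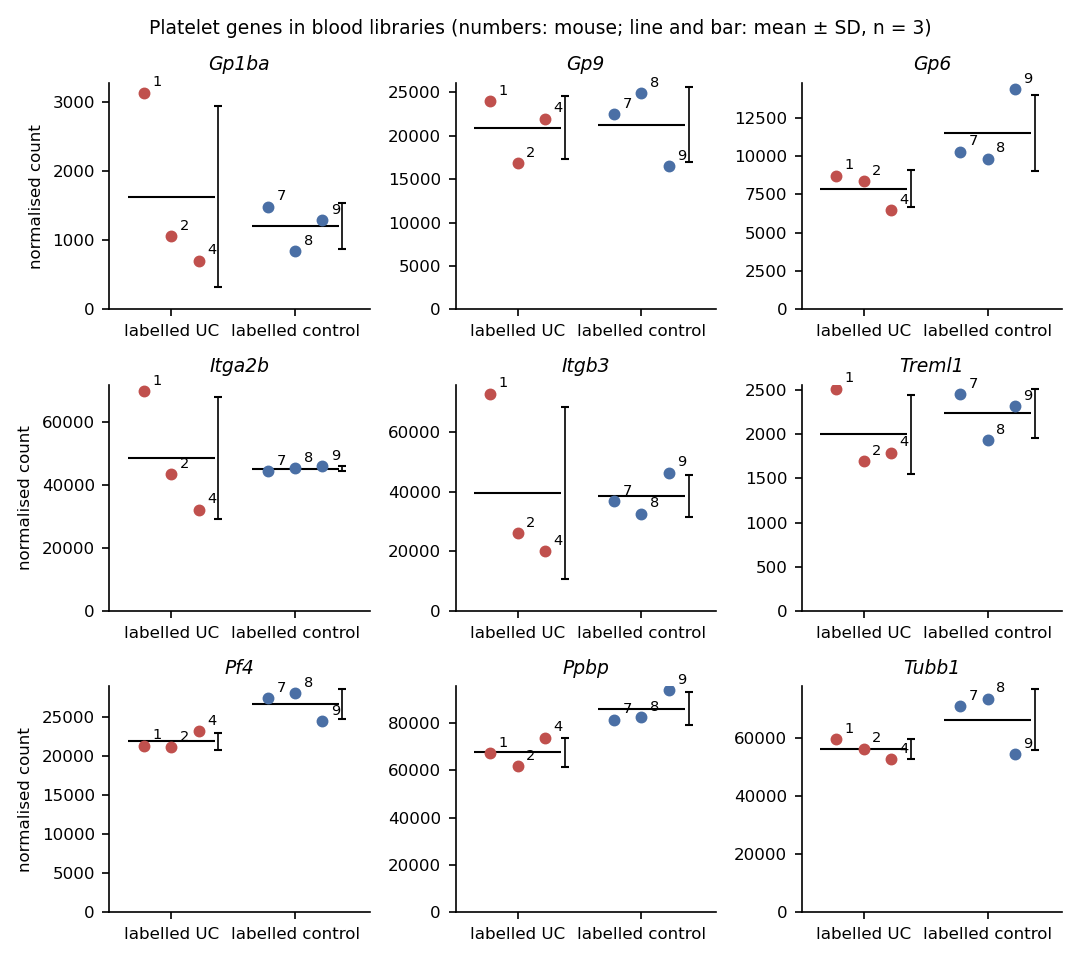
Normalised counts of the 9 platelet genes in each blood library (linear axes from 0), with the mouse number beside each point and the mean ± SD of the 3 libraries per label. The points of the labelled groups do not overlap for Gp6, Pf4 and Ppbp, and mouse 1 stands highest for Gp1ba, Itga2b and Itgb3.

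The comparison of libraries labelled UC with libraries labelled control asks whether the colitis label moves platelet transcripts. In the blood no member was called (edgeR quasi-likelihood test, adjusted p at most 0.05 and absolute log2FC over 1), none of the 9 had an unadjusted p under 0.05, and DESeq2 called 0 as well. The background was 0% of 16759 genes called, with 241 genes at an unadjusted p under 0.05. The members' log2FC ran from -0.55 to 0.43 with a median of -0.16, beside 0.04 over all genes tested. With total counts alone as the scale both medians moved down, to -0.51 for the members and -0.27 for all genes. In bulk RNA a lower number of platelets and less RNA per platelet cannot be told apart. The sources give the mice as separate animals, so the p-values measure the spread between mice within a label. Each label holds mice of high and of low S100a8, so that spread includes this difference. The absence of calls therefore does not show that colitis leaves these genes unchanged.

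On the normalised counts, Gp6, Pf4 and Ppbp had labelled groups that did not overlap in the blood. This is 3 of 9 members, against a background of 6.50% of the genes tested. Gp6 measured 8717, 8382 and 6489 normalised counts in mice 1, 2 and 4 and 10295, 9826 and 14371 in mice 7, 8 and 9. All libraries labelled UC were lower, with a log2FC of -0.55 ± 0.25 (SE, 95% interval -1.13 to 0.03, edgeR adjusted p = 0.9998). Pf4 measured 21361, 21134 and 23181 in mice 1, 2 and 4 against 27457, 28105 and 24536 in mice 7, 8 and 9. The highest library labelled UC lay just below the lowest labelled control, and the log2FC was -0.29 ± 0.23 (95% interval -0.83 to 0.25). Ppbp measured 67072, 61653 and 73768 against 81369, 82363 and 93919, with a log2FC of -0.35 ± 0.27 (95% interval -0.97 to 0.27). None of these 3 differences passed the test, and each interval included no change. On CPM over the genes of the normalised table, without further scaling, only Gp6 of these 3 kept its labelled groups apart. Pf4 in mouse 4 (605 CPM) then lay above mice 8 (542) and 9 (527). Ppbp in mouse 4 (1926 CPM) lay above mouse 8 (1590).

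Tubb1 overlapped between labels through a single library. It measured 59442, 56207 and 52577 in mice 1, 2 and 4 and 70812, 73315 and 54288 in mice 7, 8 and 9, the last of these lying among the libraries labelled UC. Its log2FC was -0.24 ± 0.27. Treml1 measured 2516, 1698 and 1793 against 2456, 1931 and 2318, and Gp9 23990, 16861 and 21970 against 22474, 24893 and 16477. Both genes overlapped widely, with log2FC of -0.16 and -0.03.

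For the receptor chains with long transcripts, mouse 1 set the mean of the libraries labelled UC. Gp1ba measured 3134, 1055 and 704 in mice 1, 2 and 4 and 1488, 848 and 1290 in mice 7, 8 and 9. Itgb3 measured 72963, 26137 and 20190 against 36768, 32699 and 46431, and Itga2b 70038, 43567 and 32255 against 44448, 45400 and 46070. In all 3 genes mouse 1 was the highest library of the 6 and mouse 4 the lowest, on either side of every library labelled control. The log2FC were 0.43 ± 0.53 (Gp1ba), 0.04 ± 0.48 (Itgb3) and 0.10 ± 0.33 (Itga2b). Without mouse 1 they were -0.46, -0.73 and -0.25, none of them called, and Itgb3 then had an unadjusted edgeR p of 0.0329 with an adjusted p of 0.996.

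The members differed in how much they varied between blood libraries. The coefficient of variation over the 6 blood libraries was 62.4% for Gp1ba, 48.0% for Itgb3, 27.4% for Gp6 and 26.4% for Itga2b, against a median of 23.7% over all genes with a mean of at least 100 counts. It was 17.0% for Gp9, 16.8% for Treml1, 15.2% for Ppbp, 14.4% for Tubb1 and 12.3% for Pf4. The first 4 genes have over 2700 bases of exon and the other 5 at most 1500. The mean log2 deviation of the 4 longer genes minus that of the 5 shorter ones was 0.70, 0.01 and -0.58 in mice 1, 2 and 4 and -0.08, -0.31 and 0.26 in mice 7, 8 and 9. Over all genes of the same exon lengths the difference of the medians was 0.08, 0.03 and -0.13 in mice 1, 2 and 4 and -0.04, -0.15 and 0.15 in mice 7, 8 and 9, so it had the same sign in each library and was smaller in 5 of the 6. Length did not order the members in full. Treml1, a short gene, had r = 0.85 with Itgb3 and 0.80 with Gp1ba over the 6 blood libraries, while Gp6, a long one, had r = 0.25 with Gp1ba and 0.32 with Itga2b and was highest in mouse 9. The part of transcript length in the members' spread was not tested.

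**Figure D2:**
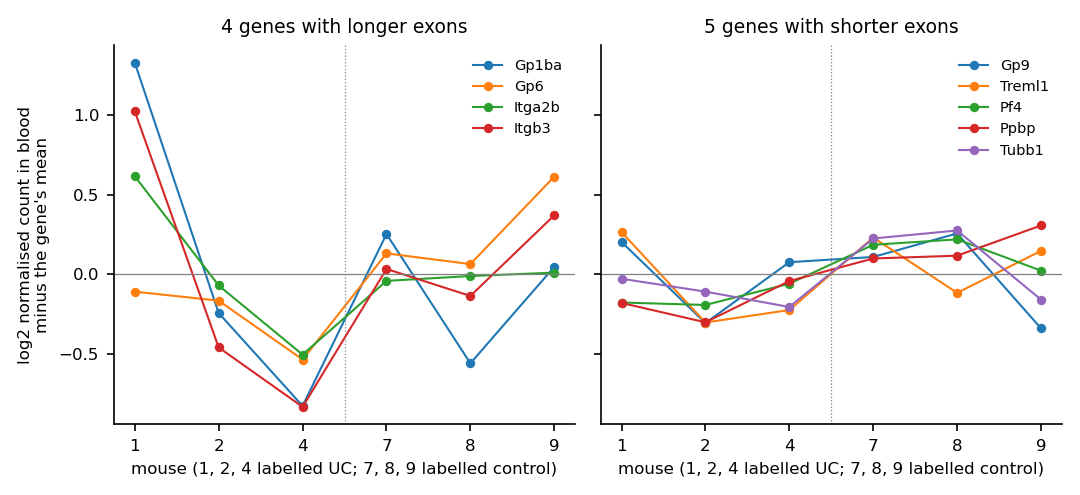
The log2 normalised count of each platelet gene in each blood library minus the gene's own mean over the 6 libraries, with the 4 genes of over 2700 exon bases on the left and the 5 of at most 1500 on the right. Gp1ba, Itgb3 and Itga2b part mouse 1 from mouse 4, while the shorter genes stay closer to their means.

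Pairs of members that form 1 protein complex differed in how closely they kept together. Over the 6 blood libraries Itga2b and Itgb3 had the highest correlation of the 36 pairs of members (Pearson r = 0.93), and Gp1ba followed both (r = 0.92 and 0.92). For Gp1ba and Gp9, chains of 1 receptor, r was 0.15. The median over the 36 pairs was 0.24 and the lowest value -0.39. These values describe 6 libraries that share depth and composition. The ratio of Itgb3 to Itga2b counts ran from 0.600 to 1.04. The ratio of Gp1ba to Gp9, partners in the von Willebrand factor receptor, ran from 0.0321 to 0.131. The chemokine pair was steadier, with 0.261 to 0.343 Pf4 counts for each Ppbp count.

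The genes whose blood profile was most like the mean of the members were sought among 11196 genes with a mean of at least 100 counts. Each member is itself part of that mean, and members that vary more weigh more in it. The members' own r with that mean was 0.95 for Itgb3, 0.92 for Treml1, 0.86 for Itga2b and 0.85 for Gp1ba. It was 0.58 for Gp6, 0.41 for Tubb1, 0.28 for Gp9, 0.28 for Ppbp and 0.18 for Pf4. A likeness to this mean is thus not a likeness to every member. Among the 5 highest outside the lists were Mcam (r = 0.99), Adam9 (0.98), Stk24 (0.98) and Olfm4 (0.98). Of these, Mcam encodes an adhesion molecule, Adam9 a membrane protease, Stk24 a kinase and Olfm4 a secreted glycoprotein of neutrophils. The members' mean profile, centred on the log2 scale, was 0.33, -0.24 and -0.35 in mice 1, 2 and 4 and 0.14, 0.01 and 0.11 in mice 7, 8 and 9, with its highest library in mouse 1 and its lowest in mouse 4. It was higher in mice 1, 7 and 9 than in mice 2, 4 and 8, as were Itgb3, Gp1ba and Treml1. Blood sums over 10 neutrophil markers parted the same mice, with 485461, 156477 and 358544 normalised counts in mice 1, 7 and 9 and 55718, 48880 and 40766 in mice 2, 4 and 8. The part of neutrophils in the profile, and so in the likeness to it, was not tested. With 6 libraries, 187 genes (1.67%) reached r of at least 0.9. Among the other platelet genes of the lists, 6 of 64 did, with a median r of 0.60, beside a median of -0.0048 over all genes compared.

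The comparison of blood with colon asks how far these transcripts belong to circulating blood in these mice. All 9 members were higher in blood (edgeR, adjusted p at most 2.41e-05), against a background of 20.8% of 23258 genes called higher in blood. Gp1ba, Gp9 and Treml1 did not pass the filter in the colon alone and entered this fit through their blood level. The direction of their calls follows from that entry. For each member the lowest blood count lay above the highest colon count. The same test with the mouse number as a block called all 9, and DESeq2 called all 8 for which it gave an adjusted p. The median log2FC of the members was 11.12, beside -0.46 over all genes tested. With total counts alone as the scale the median of all genes moved to -2.57 and that of the members to 9.03, and all 9 remained higher.

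The size of the difference ordered the members in a way that their blood levels did not. Tubb1 had a mean of 1109 CPM (scaled by TMM over both tissues) in blood and of 0.226 in colon, a log2FC of 12.25 ± 0.52 (SE). Ppbp had 1392 CPM in blood and 0.461 in colon, a log2FC of 11.55 ± 0.39. The 2 chains of the fibrinogen receptor differed from each other, with 852 and 1.18 CPM for Itga2b (log2FC 9.51 ± 0.44) and 713 and 12.02 CPM for Itgb3 (log2FC 5.91 ± 0.44). Gp6 had 176 and 0.625 CPM (log2FC 8.18 ± 0.98) and Pf4 441 and 2.82 CPM (log2FC 7.28 ± 0.20), so Itgb3 and Pf4 showed the smallest differences of the 9. The interval of Pf4 (6.83 to 7.72) lay below that of Ppbp (10.69 to 12.42), its neighbour in the genome and fellow chemokine.

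The other 3 members were close to the limit of detection in the colon. Gp9 gave 59 counts in the 6 colon libraries together with 1 library at 0, Treml1 gave 30 counts with 3 libraries at 0, and Gp1ba gave 14 counts with 4 libraries at 0. Their mean blood CPM was 7702, 1639 and 2196 times their mean colon CPM. The fitted log2FC of 12.83 (Gp9), 12.40 (Treml1) and 11.12 (Gp1ba) rest on these few counts. For Treml1 the fitted value lay above the log2 ratio of the means (10.68), and for Gp1ba it moved to 13.29 without mouse 9, which gave most of its colon counts. A library at 0 allows up to 3 counts, taking counts as if they were reads, and that limit covers counting error only.

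**Figure D3:**
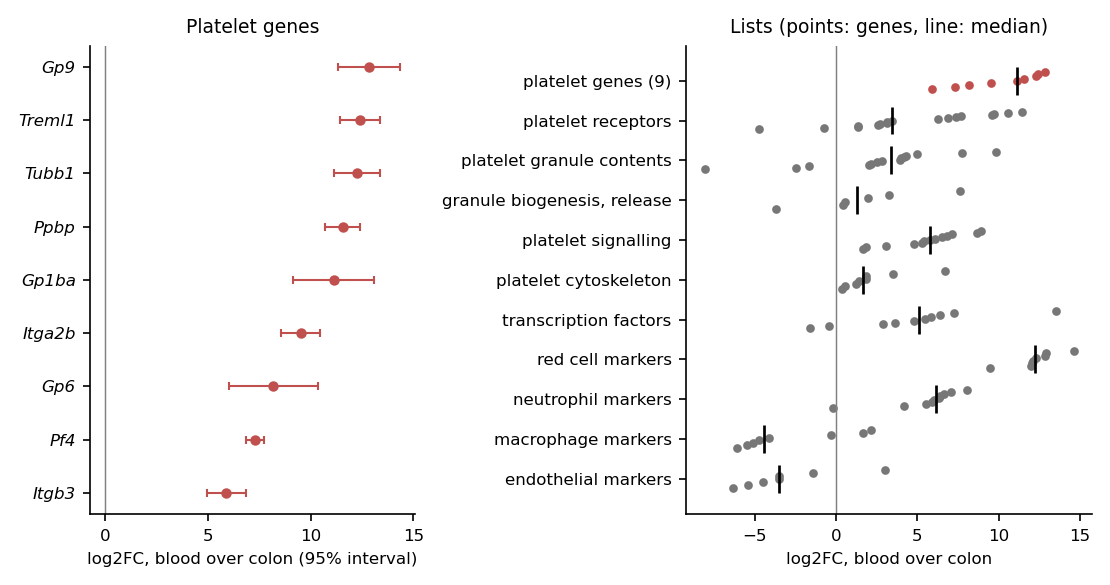
Left, log2FC of blood over colon for the 9 platelet genes with 95% intervals (edgeR, 12 libraries). Right, the same value for each gene of the platelet and marker lists, with a line at each list's median. Itgb3 and Pf4 lie lowest among the members, and red cell markers have a median (12.20) above that of the members. Gp1ba, Gp9 and Treml1 among the members and Ermap, Kel and Rhag among the red cell markers did not pass the filter in the colon alone. They entered through their blood level, so both medians rest in part on genes with few colon counts.

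Other platelet genes, taken from lists of receptors, granule contents, granule release, signalling, cytoskeleton and transcription factors, were mostly higher in blood too. Of 68 genes, 55 were called higher in blood, 6 higher in colon and 7 neither, with a median log2FC of 3.56. Signalling genes were higher in blood for all 13, receptors for 14 of 17, granule contents for 11 of 14, transcription factors for 8 of 10, cytoskeleton genes for 6 of 8 and genes of granule biogenesis and release for 3 of 6. The highest were Gata1 (13.52), which encodes a transcription factor of red cells and megakaryocytes, and Clec1b (11.40), which encodes the podoplanin receptor of platelets. Gata1 had too few counts for the filter in the colon alone and entered through its blood level. The lowest were Sparc (-8.07), a matrix protein, Jam3 (-4.73), a junction protein, and Slc35d3 (-3.71), a carrier needed for platelet dense granules. Jam3 and Slc35d3 had too few counts for the filter in the blood alone and entered through their colon level. The direction of their calls follows from that entry. Red cell markers, which trace blood inside tissue, had a median log2FC of 12.20, macrophage markers one of -4.43 and endothelial markers one of -3.50. Markers of other blood cells were mostly higher in blood as well, with medians of 6.15 (neutrophil), 6.07 (B cell) and 4.98 (T cell). Each of these lay above the 3.56 of the other platelet genes, so a higher level in blood was not particular to platelet genes. Smooth muscle markers had a median of -10.03 and gut epithelium markers one of -10.72.

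The members did not keep their blood proportions in the colon. Here CPM was taken over the genes of each tissue's normalised table, without TMM scaling, and the percentages depend on that scale. By TMM-scaled means, blood held 4912 times the colon level for Tubb1, 156 times for Pf4 and 59.3 times for Itgb3. On the unscaled CPM, Tubb1 in the colon was 0.0160% to 0.0703% of the level in the same mouse's blood (median 0.0452%). Ppbp was 0.0478% to 0.127% (median 0.0561%) and Gp9 0% to 0.0786% (median 0.0211%). Red cell markers had a median of 0.0405% over 48 values from 8 genes and 6 mice, with a range from 0% to 0.550%. The medians of these 3 members lay on either side of that of the red cell markers. Itgb3 in the colon was 1.86% to 7.14% of its blood level (median 3.59%) and Pf4 0.973% to 2.18% (median 1.31%). Every mouse's value for both genes lay above every value of the red cell markers. By their medians, Gp6 lay between these, with 0.0532% to 1.86% (median 0.736%), and so did Itga2b, with 0.153% to 0.444% (median 0.287%), so that the members formed a gradient. Treml1 had a median of 0.0922% and Gp1ba one of 0%, both from few counts.

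Ratios between members within a library restate these differences mouse by mouse and are given as a description, with no test. There were 4.32 to 9.85 Pf4 counts per Ppbp count in the colon, against 0.261 to 0.343 in the blood. The log2 ratio was higher in the colon by 4.35 ± 0.39 (SD, n = 6 mice), in 6 of 6 mice. For Itgb3 over Itga2b the ratio was 6.15 to 28.0 in the colon against 0.600 to 1.04 in the blood, higher by 3.72 ± 1.06 in log2 in 6 of 6 mice. Tubb1 over Ppbp moved the other way and by less. It was 0.304 to 0.604 in the colon against 0.578 to 0.912 in the blood, a log2 difference of -0.80 ± 0.55 and lower in the colon in 6 of 6 mice.

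**Figure D4:**
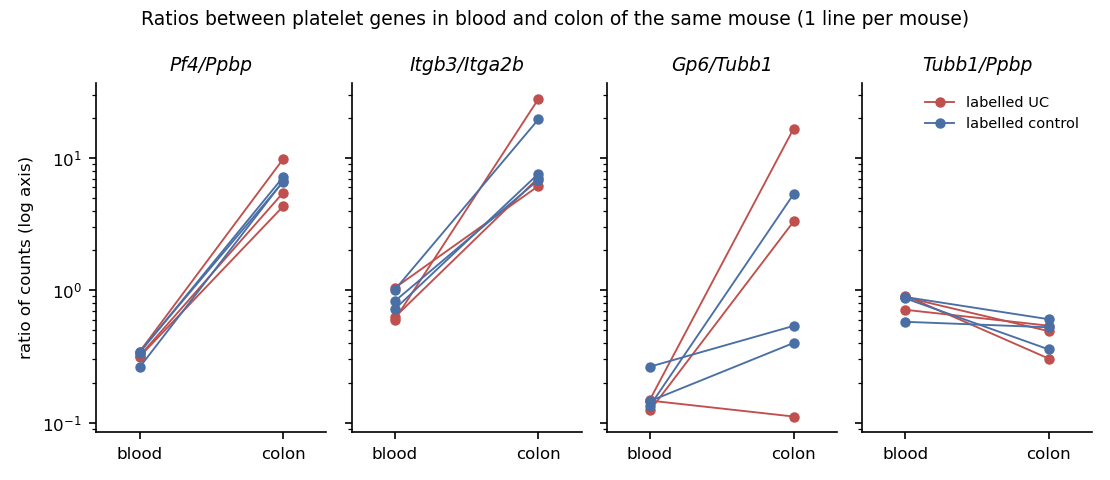
Ratios of counts between 2 platelet genes in the blood and colon of the same mouse (log axis, 1 line per mouse, coloured by label). Pf4 over Ppbp and Itgb3 over Itga2b were higher in the colon in all 6 mice, Tubb1 over Ppbp was lower in all 6, and Gp6 over Tubb1 spread from 0.111 to 16.7 in the colon.

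Levels of Itgb3 and Pf4, the 2 genes at the top of this gradient, were set beside markers of cells that a colon holds and that are known to express them. Pf4 measured 571, 394 and 581 normalised counts in the colon of mice 1, 2 and 4 and 510, 401 and 597 in that of mice 7, 8 and 9. Summed over 8 macrophage markers, the colon libraries held 23457, 11159 and 12932 normalised counts in mice 1, 2 and 4 and 33996, 10594 and 34824 in mice 7, 8 and 9, with none of the markers at 0. Mice 2 and 8 were lowest for both, while mouse 4 was high for Pf4 and low for the markers. Itgb3 measured 1661, 2537 and 1412 in mice 1, 2 and 4 and 2405, 1306 and 3673 in mice 7, 8 and 9. Over 7 endothelial markers, none at 0, the sums were 7579, 8797 and 6640 in mice 1, 2 and 4 and 11895, 6432 and 13863 in mice 7, 8 and 9. Mouse 9 was highest and mice 4 and 8 lowest for both, and the part of either cell type in the colon levels was not tested.

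Within the colon the labels were compared for 6 members, since Gp1ba, Gp9 and Treml1 had too few counts for the filter. None of the 6 was called by edgeR, none had an unadjusted p under 0.05, and DESeq2 called 0, against a background of 0.00450% of 22238 genes. The labelled groups overlapped for all 6, against a background of 5.67% of genes without overlap. The log2FC were 0.02 ± 0.27 for Pf4, 0.32 ± 0.50 for Ppbp, -0.36 ± 0.51 for Itga2b, -0.40 ± 0.40 for Itgb3, 0.31 ± 0.67 for Tubb1 and 0.94 ± 1.43 for Gp6. The median was 0.17, beside -0.01 over all genes tested. The intervals were wide, from -0.63 to 0.68 for Pf4 and from -2.49 to 4.37 for Gp6. The Gp6 value rested on single libraries, with a log2FC of 3.07 without mouse 8, 1.51 without mouse 1, 0.65 without mouse 2, 0.54 without mouse 9, 0.44 without mouse 4 and 0.42 without mouse 7, none of them called.

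**Figure D5:**
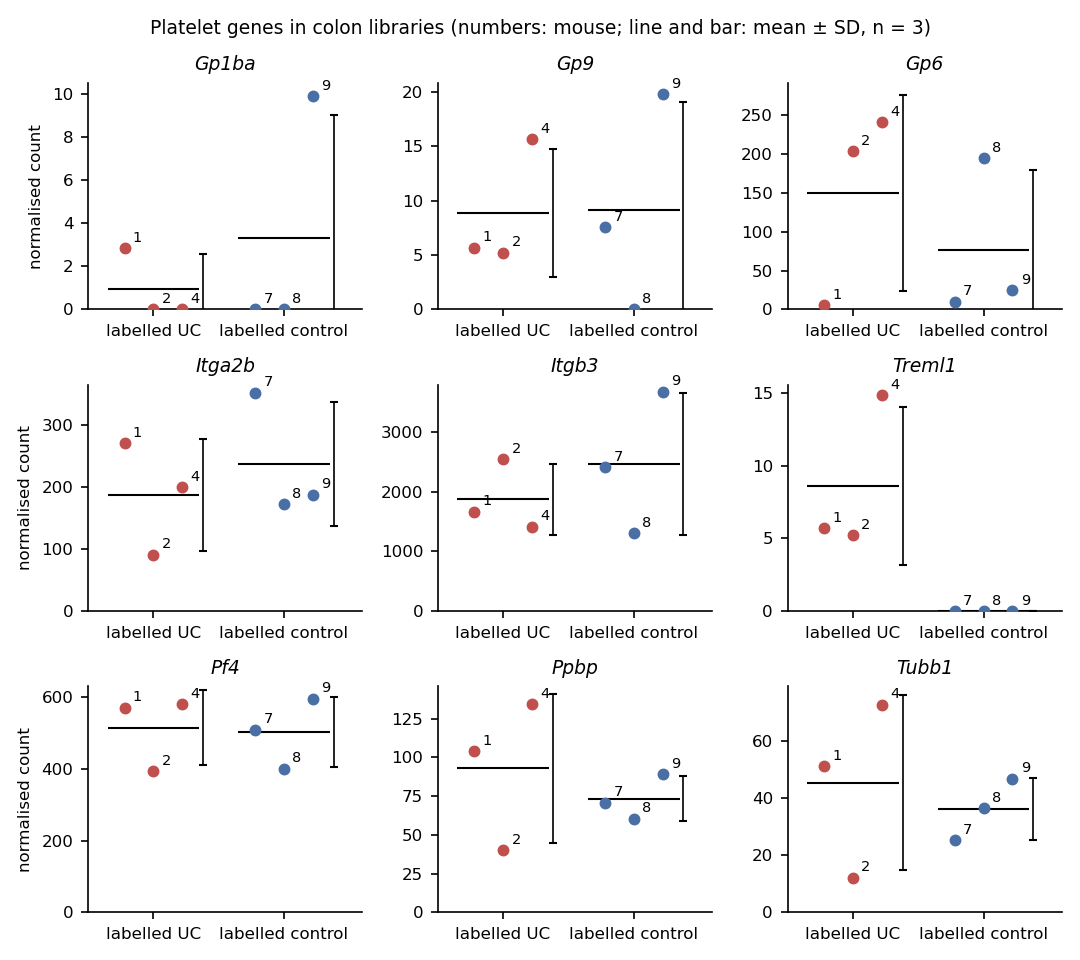
Normalised counts of the 9 platelet genes in each colon library (linear axes from 0, error bars cut at 0), with the mouse number beside each point and the mean ± SD of the 3 libraries per label. Treml1 is at 0 in mice 7, 8 and 9, and Gp6 is between 195 and 241 in mice 2, 4 and 8 and at most 25.2 in mice 1, 7 and 9.

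Gp6 stood apart among the members in the colon. It measured 5.68, 204 and 241 normalised counts in mice 1, 2 and 4 and 10.1, 195 and 25.2 in mice 7, 8 and 9, from 6, 234 and 292 and from 8, 155 and 28 counts. Mice 2, 4 and 8 were high and mice 1, 7 and 9 low, across the labels. Tubb1 did not share this order, with 51.1, 12.2 and 72.6 in mice 1, 2 and 4 and 25.3, 36.6 and 46.8 in mice 7, 8 and 9. The ratio of Gp6 to Tubb1 was 16.7, 3.32 and 5.34 in mice 2, 4 and 8 and 0.111, 0.400 and 0.538 in mice 1, 7 and 9, while in the blood it kept between 0.123 and 0.265. Over all 6 mice the ratio was higher in the colon in 5. The 3 libraries with high Gp6 were also the 3 with the lowest sums over 10 neutrophil markers, 208, 304 and 386 normalised counts in mice 2, 4 and 8 against 16429, 8023 and 45893 in mice 1, 7 and 9. Colon sums over 8 macrophage markers and over 3 T cell markers parted the same mice, while those over 4 B cell markers and 7 endothelial markers did not. The part of inflammation or of any cell type in the Gp6 level was not tested.

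The interaction of label and tissue asks whether the label had another effect in blood than in colon. edgeR called 0 of the 9 members, 1 had an unadjusted p under 0.05, and the background was 0.00430% of 23258 genes called. That member was Treml1, which did not pass the filter in the colon alone and entered this fit through its blood level. Its colon counts were 6, 6 and 18 in mice 1, 2 and 4 and 0, 0 and 0 in mice 7, 8 and 9, so the labelled groups did not overlap, at a level of at most 14.8 normalised counts, and no fold is given for so few counts. The log2FC in blood minus that in colon was -5.72 ± 0.94 (SE, edgeR adjusted p = 0.605), a size that depends on the small count added where a group is at 0. DESeq2 called Treml1 (adjusted p = 0.0257) as 1 of 20 genes, 0.0860% of those given to it, while with the mouse number as a block edgeR gave an adjusted p of 1. The adjusted p ran from 0.0257 to 1 over all 13 alternatives. Of the other 8 members, those with the largest differences were Gp1ba (2.33 ± 1.65) and Gp6 (-1.50 ± 1.47), neither of them called. Gp1ba, like Treml1, did not pass the filter in the colon alone and entered through its blood level. Its colon counts were 3, 0 and 0 in mice 1, 2 and 4 and 0, 0 and 11 in mice 7, 8 and 9, too few to measure a label effect.

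The other platelet genes showed no label effect that passed the test either. In the blood 0 of 66 tested were called by edgeR, with 2 at an unadjusted p under 0.05. The highest log2FC were those of Nbeal2 (0.85), needed for alpha granules, Sparc (0.84) and Gp1bb (0.75), the partner chain of Gp1ba, and the lowest those of Plek (-0.89), which encodes pleckstrin, Rab27b (-0.60), a GTPase of granule release, and Tpm4 (-0.48), a tropomyosin. In the colon 0 of 66 were called, with 2 at an unadjusted p under 0.05. There the highest were Gp1bb (1.50), Gp5 (0.64), a further chain of the same receptor, and Myl9 (0.55), a myosin light chain, and the lowest Selp (-2.03), the adhesion molecule P-selectin, Stx11 (-1.63), a syntaxin of granule release, and Lat (-1.60), an adaptor of collagen receptor signalling. For the interaction 0 of 68 were called, with 2 at an unadjusted p under 0.05. The highest values were Selp (2.41), Lat (1.64) and Srgn (1.56), a granule proteoglycan, and the lowest Gata1 (-2.48), Rab27b (-0.89) and Gng11 (-0.83), a G protein chain. Gata1 did not pass the filter in the colon alone and entered this fit through its blood level.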

How the data were processed

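Total RNA of whole blood and colon from 6 mice was sequenced, 3 mice per disease label. Per the submitters' processing notes and the study's methods, the authors mapped reads to GRCm38 with STAR and quantified Ensembl 92 genes with StringTie 1.3.4c. The deposited counts are whole numbers that the authors derived from transcript coverage and not a tally of reads. STAR's strand field was set from intron motifs and StringTie ran in its estimate mode at default options, with no library strand named. The deposited normalised values, one table per tissue, are a signal scale: the authors divided each count by 1 factor per library (0.664 to 1.31 in blood, 0.791 to 1.21 in colon, the same for 100% of genes at a relative tolerance of 1e-06). Values of the 2 tables were never set against each other.

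Groups followed the disease state and tissue labels. A second label field gives the opposite tissue in every sample, and the tissue markers matched the field used. Tests used the deposited counts in edgeR 4.0.16 (TMM, filterByExpr, quasi-likelihood F test, Benjamini-Hochberg over all genes tested) in R 4.3.3, with DESeq2 1.42.0 as an alternative, and the code was tested on simulated data. A gene was called at adjusted p of at most 0.05 and absolute log2FC over 1, and for the interaction at adjusted p of at most 0.05. Levels per length used CPM over the genes of the normalised table, divided by the union of GENCODE vM21 exons. Likeness used log2 of normalised count plus 0.5. The study took both tissues from the same mice, so mouse numbers pair the libraries. Blood and colon deviations of a mouse correlated at r = 0.0073 to 0.233, over 0.1 in 3 of 6 mice.

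The members and lists were chosen with earlier results of these data known. Named are all members, S100a8, in each comparison the 3 highest and 3 lowest other platelet genes that passed the filter together with called genes if at most 5, the 5 genes outside the lists most like the members' blood profile, and any gene overlapping a member's exon. Some genes that this rule names are not reported here. Alternatives were other scalings, other filters, DESeq2, the genes of the normalised tables alone, the mouse block, all 12 libraries in the fit, TMM CPM for overlap, the longest transcript for length, and leaving out each mouse. Depth sets a limit for members with few colon counts, and intervals cover the spread between mice or, for floors, counting error only.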

Additional observations from a re-analysis of the deposited data

Results flagged for a closer look

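Each gene was examined in the 6 libraries of a tissue, which made 18 sets of values, and in 3 of them 1 library lay far from the others, its gap to the next library taking a larger share of the whole range than Dixon's critical value at 95% allows. Chance alone does this in about 1 of 20 sets of independent, normally distributed values, a rate that does not carry over to these sets, since Gp1ba and Itga2b in blood moved together (r = 0.92) and Gp1ba in colon was mostly at 0. Gp1ba in blood reached 3134 normalised counts in mouse 1, 2.11 times the next library. Itga2b in blood reached 70038 normalised counts in mouse 1, where Itgb3, its partner chain, was also highest. Gp1ba in colon reached 9.90 normalised counts in mouse 9, from 11 counts, with 4 of the 6 libraries at 0. The causes were not tested.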

How the results depend on the processing

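The number of members called was 0 for the label in blood and 0 for the label in colon under all 13 alternatives of each comparison, with at most 2 members in blood and 1 in colon at an unadjusted p under 0.05. Blood against colon called 9 under each of the 13 except DESeq2, which called all 8 that it gave an adjusted p. The interaction moved under DESeq2, which called 1 member, Treml1, and stayed at 0 under the other 12, and the cause was not tested. Leaving out each mouse in turn gave 0 to 0 members for the label in either tissue, 9 to 9 for blood against colon and 0 to 0 for the interaction. With the replicate block blood against colon called 9 and the interaction 0, and the block changed no call of a member. The members without overlap were 3 in blood and 0 in colon on TMM CPM as on the normalised counts. On CPM over the genes of the normalised table, without further scaling, Pf4 and Ppbp overlapped in blood and Gp6 did not. The log2FC of Gp6, Pf4, Ppbp, Treml1 and Tubb1 in blood stayed below 0 under all 13 alternatives. No member past the threshold changed sign under any alternative run. Log2FC that had not passed it changed sign in 10 of 117 refits for blood, 6 of 78 for colon and 8 of 116 for the interaction, among them Gp1ba, Itgb3 and Itga2b in blood without mouse 1 or with total counts alone as the scale. With the longest transcript as the length, Itga2b in blood had 278 CPM per kb in place of 175, and Treml1 came before Gp6. Depth limits the colon values of Gp1ba, Gp9 and Treml1, which had 14, 59 and 30 counts in all 6 libraries. Groups of 3 left 95% intervals of the label's log2FC in blood from 1.07 wide for Pf4 to 2.42 for Gp1ba.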

Other observations

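The summed level of the platelet signalling genes had labelled groups that did not overlap in the blood. It was the 1 list of 15 whose blood sums did so, and in the colon 0 of 15 did, beside 6.50% and 5.67% of single genes. The count in blood is thus close to the share of single genes, though a share for sums of genes is not known. The 13 genes summed to 140436 to 158616 normalised counts in the libraries labelled UC and to 185115 to 257539 in the libraries labelled control. None of the 13 was called by edgeR in either tissue, and in the colon the sums overlapped (15694 to 21195 against 14871 to 25208). The sum is led by its most abundant genes and was singled out after the values were seen. The 9 members together summed to 232928 to 329233 normalised counts in the blood libraries labelled UC and to 297567 to 299700 in those labelled control, so the libraries labelled UC lay on both sides of the narrow range of the libraries labelled control.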
